A study of Mus musculus with 6 samples.

Results

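The mitosis genes are a set of 55 mouse genes whose products drive or carry out cell division, from the kinase that starts mitosis to the ring that separates the daughter cells. Members were every probe set whose only gene symbol in the array annotation was 1 of the 55, which gave 124 probe sets of 54 genes, out of 45037 probe sets of 18193 genes. Levels of cyclin B1 (Ccnb1) are not analysed here, while its promoter is among those searched below. The genes were listed by name, and earlier results of these data were known when the list was made.

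Hematopoietic stem cells came from the bone marrow of male C57Bl/6 (CD45.1) mice aged 10 weeks. Both groups were sorted as Lineage-, Sca-1+ and c-Kit+ cells, and they differ in where the cells lay within the side population, that is, the cells that exclude a DNA-binding dye through membrane pumps. Lower-SP cells lay in its lower part and Upper-SP cells in its upper part, and the labels name no agent and no allele beyond CD45.1. Each group has 3 arrays, labelled as biological replicates from pools of mice sorted on separate days, so each array averages a pool and p-values measure the spread between these pools. RNA was labelled with biotin through repeated rounds of in vitro transcription. Levels are the deposited log2 values, and every difference is a log2 value, the Lower-SP mean less the Upper-SP mean, so that a positive one means higher in Lower-SP. Levels of different probe sets are not compared, because probes bind with different strength. Values are listed in the order replicate 1, 2 and 3.

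Cells enter mitosis when CDK1, bound to a cyclin, phosphorylates its targets, and leave it when the anaphase-promoting complex marks the cyclins and the separase inhibitor securin for destruction. In between, condensin compacts the chromosomes, kinesins and their partners build the spindle, kinetochores attach the chromosomes to it, and a checkpoint holds anaphase back until all are attached. Most of these transcripts are made from late S phase to mitosis and are kept low in resting cells by the DREAM complex, which acts through the CHR element and works together with CCAAT boxes bound by NF-Y. Adult hematopoietic stem cells are mostly quiescent, so mitosis transcripts are commonly read as a sign of the few that divide.

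The stem cell markers were present on every array: 6 of 6 annotated ones (of 7 listed) lay above log2 4, with a summed linear level of 23572 to 25838 in Lower-SP and 23731 to 24838 in Upper-SP. Of these 6, 0 were called higher and 1 lower in Lower-SP. Kit had levels of 8.19, 7.83 and 8.03 in Lower-SP and of 9.07, 9.1 and 8.66 in Upper-SP, which do not overlap. Markers of other cell types were in part present. Of 6 annotated erythroid markers 5 lay under log2 4 on all arrays (Klf1, Alas2, Hba-a1, Car1 and Epor), while Tfrc ran from 8.41 to 9.05. Of 5 B cell markers 3 did (Cd79a, Ebf1 and Pax5), while Cd79b ran from 6.29 to 7.68 and Ms4a1 from 3.70 to 4.51. Of 4 T and NK cell markers 3 did (Cd3d, Cd3e and Cd3g), while Nkg7 ran from 5.26 to 7.07 and was lower in Lower-SP. Of the 6 megakaryocyte markers Ppbp did, while Pf4 ran from 9.58 to 10.15, Vwf from 8.21 to 11.34 and Itga2b from 6.92 to 7.68. Of 5 monocyte markers 2 did (Adgre1 and Ccr2), while Lyz2 ran from 10.52 to 11.71, Cd14 from 8.49 to 9.72 and Csf1r from 6.45 to 8.0. Gp1bb, of the megakaryocyte list, and Csf1r were called higher in Lower-SP, and the summed level was 1718 to 3845 in Lower-SP and 1453 to 2024 in Upper-SP for megakaryocytes, and 2186 to 2675 and 2460 to 4301 for monocytes. Several neutrophil markers, though not all, moved with 2 of the Lower-SP arrays. Of 15 neutrophil markers listed 13 were annotated and 8 tested, of which 4 were higher and 1 lower in Lower-SP. The lower one, Padi4, had levels of 7.7, 7.99 and 7.29 in Lower-SP and of 9.16, 9.09 and 9.17 in Upper-SP. The summed level of the 13 ran from 1162 to 17250 in Lower-SP and from 834 to 1250 in Upper-SP, with Cd177, Cxcr2 and Wfdc21 under log2 4 on all arrays. S100a8, a calcium-binding protein of neutrophils, had levels of 13.19, 12.60 and 9.16 in Lower-SP and of 7.62, 7.87 and 6.95 in Upper-SP. Lower-SP replicates 1 and 2 are thus the high ones, and the counts below are also given without these arrays. Of 6 annotated granulocyte progenitor markers, Ctsg, Elane, Fcnb and Ms4a3 lay under log2 4 on all arrays. Mpo lay above it on Lower-SP replicate 1 alone, at 4.24, and Prtn3 ran from 11.42 to 11.55 in Lower-SP and from 11.99 to 12.12 in Upper-SP and was called lower. The part of these cell types in the mitosis differences was not tested. Across probe sets, 2 arrays of the same fraction correlated at 0.952 to 0.991 (Pearson's r) and 2 of different fractions at 0.911 to 0.938.

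Promoter sequences were available for 47 of the 55 genes (50 windows of 300 bases, from 250 before to 50 after the transcription start, RefSeq, GRCm38.p6). The 150 bases before the start are printed for 5 genes, chosen so that genes with a probe set raised in Lower-SP (Smc2 and Kif11) stand beside genes without one (Cdk1, Cdc20 and Ube2c). Each reads 5′ to 3′ on the strand of the gene, and capitals mark the CHR element (TTTGAA, or TTCAAA on the other strand) and the CCAAT box (CCAAT, or ATTGG on the other strand).
Smc2, chr4:52439071-52439220, plus strand: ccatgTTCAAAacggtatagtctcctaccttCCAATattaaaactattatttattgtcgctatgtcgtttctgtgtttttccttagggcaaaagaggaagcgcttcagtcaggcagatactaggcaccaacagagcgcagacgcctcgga
Kif11, chr19:37376232-37376381, plus strand: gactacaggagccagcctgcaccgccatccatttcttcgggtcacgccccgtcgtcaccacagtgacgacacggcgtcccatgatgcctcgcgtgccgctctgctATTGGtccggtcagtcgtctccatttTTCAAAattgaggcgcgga
Cdk1, chr10:69352913-69353062, minus strand: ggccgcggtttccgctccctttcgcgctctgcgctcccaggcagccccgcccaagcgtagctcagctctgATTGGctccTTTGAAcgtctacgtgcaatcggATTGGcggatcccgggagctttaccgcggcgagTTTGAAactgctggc
Cdc20, chr4:118437344-118437493, minus strand: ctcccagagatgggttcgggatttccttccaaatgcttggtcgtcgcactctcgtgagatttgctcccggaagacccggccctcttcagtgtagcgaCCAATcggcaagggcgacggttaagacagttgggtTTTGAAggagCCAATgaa
Ube2c, chr2:164769779-164769928, plus strand: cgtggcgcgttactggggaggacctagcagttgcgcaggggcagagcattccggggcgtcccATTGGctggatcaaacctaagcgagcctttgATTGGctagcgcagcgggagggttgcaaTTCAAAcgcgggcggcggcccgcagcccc

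All 5 printed promoters hold both letter patterns, whether or not the gene had a raised probe set. In Kif11, Cdc20, Cdk1 and Ube2c a CHR match lies within the last 29 bases before the start, downstream of a CCAAT match. In Smc2 the CHR match before the start lies at -145 and another lies 27 bases into the transcript. Over the 47 genes, the CHR letters stood in the window of 35 (74.5%), against 20.2% of all 27025 genes with a window and 17.9% of all 32851 windows. The CCAAT letters stood in 36 (76.6%), against 41.1% of all genes and 37.4% of all windows. Both stood in 31 (66%), against 7.97% of all genes and 6.95% of all windows. GCGGGAA, a letter pattern like that of E2F sites, stood in 2 (4.26%), against 5.29% of all genes and 4.6% of all windows. All patterns were searched on both strands, and none of the 3 contains another.

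Of the 8 genes that had a raised probe set and a window, 6 held the CHR letters and 5 the CCAAT letters. Of the 30 other genes with a tested probe set and a window, 25 held the CHR letters and 25 the CCAAT letters. The remaining windows belong to Ccnb1 and to genes with no tested probe set. Matches were counted in each window, so a site in overlapping windows of a gene, as in Ect2, Prc1 and Bub3, counts more than once. The 49 CHR matches lay close to the start, with a median position of -17 and 38 of them at -100 or later. The 89 CCAAT matches had a median of -67, with 61 at -100 or later. Positions in the windows of all genes were not compared. A match is a description of the letters and not a measured binding site.

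**Figure D1:**
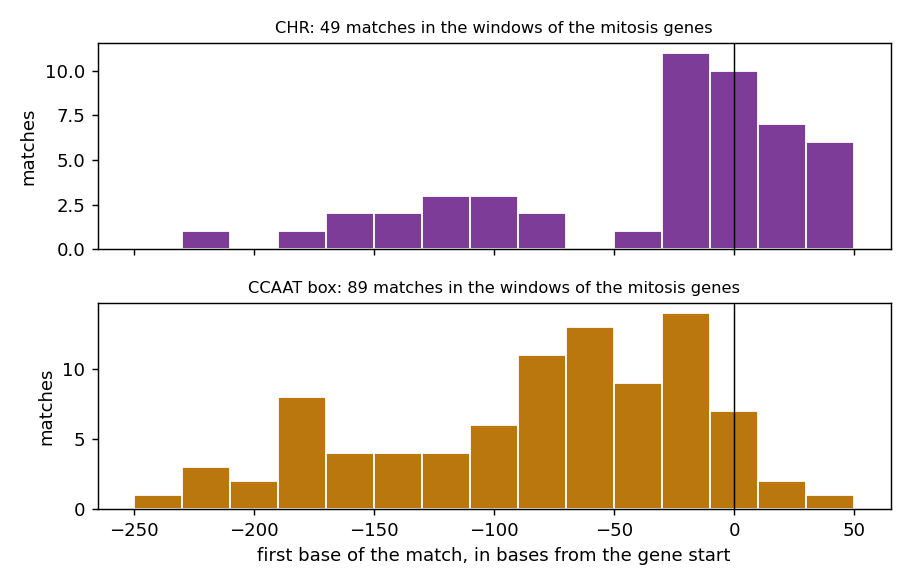
Histograms of the distance, in bases, from the transcription start to the first base of each CHR match (49) and each CCAAT match (89) in the promoter windows of the 47 mitosis genes that have one. CHR matches gather near the start (median -17) and CCAAT matches lie further upstream (median -67). A site in overlapping windows of a gene counts in each.

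Mitosis probe sets were more often higher than lower in Lower-SP, while the probe sets of the whole array were more often lower. A probe set was tested where 3 or more of the 6 arrays gave a level above log2 4, and called where limma's p, adjusted by Benjamini-Hochberg over all 19613 tested probe sets, was under 0.05. Of the 124 member probe sets 75 were tested, covering 43 genes. Of these 75, 13 rose in Lower-SP (17.3%, against 10.7% of all tested probe sets) and 2 fell (2.67%, against 17.5%). In both directions together 15 passed (20%), below the 28.1% of all tested probe sets. The probe sets that rose belong to 10 genes: Ncapg, Smc2, Smc4, Ncaph, Kif2c, Kif11, Tpx2, Cenpe, Anln and Cenpa. Those that fell belong to Cks2 and Cenpa, so that Cenpa has probe sets in both directions.

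The median difference of the 75 was 0.32, against -0.14 over all tested probe sets, and 56 of 75 were positive, against 8190 of 19613. In 23 of the 75 (30.7%) all Lower-SP arrays lay above all Upper-SP arrays, against 18.2% of all tested probe sets, and in 4 (5.33%) all lay below, against 27.9%. Read through the brightest tested probe set, 5 of 43 genes rose (11 genes have no tested probe set), against 7.05% of all 9460 genes, and 1 fell, against 20.7% (6 in all, against 27.7%). The 5 were Kif2c, Tpx2, Anln, Ncapg and Ncaph, and the 1 was Cenpa. The filter can keep a probe set through 1 group alone, as it did for Kif11 and Tpx2, so the 75 do not stand for all 124.

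The counts depended on single arrays. Without Lower-SP replicate 1, 7 member probe sets passed (18.8% of all tested probe sets did), and without Lower-SP replicate 2, 6 did (15.9%). Of the Upper-SP arrays, leaving out replicate 1 gave 5 (8.49%), replicate 2 gave 8 (13.4%) and replicate 3 gave 16 (29.5%). Leaving out Lower-SP replicate 3 raised the number to 27 (32.6%), 26 of them higher (12.5%). When both Lower-SP replicate 1 and replicate 2 were left out, 5 were higher and 4 lower (against 6.07% and 7.77% of all tested probe sets, in both directions 9 of 75 against 13.8%). The median difference was then 0.00, against -0.09 over all tested probe sets. Read through the brightest tested probe set, 19 of 43 genes were then positive, against 3754 of 9460 of all genes. Their median difference was -0.08, against -0.17. In this fit Lower-SP was a single array assumed to vary like the Upper-SP arrays. In bulk samples, more cells of a kind and more RNA per cell cannot be told apart.

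**Figure D2:**
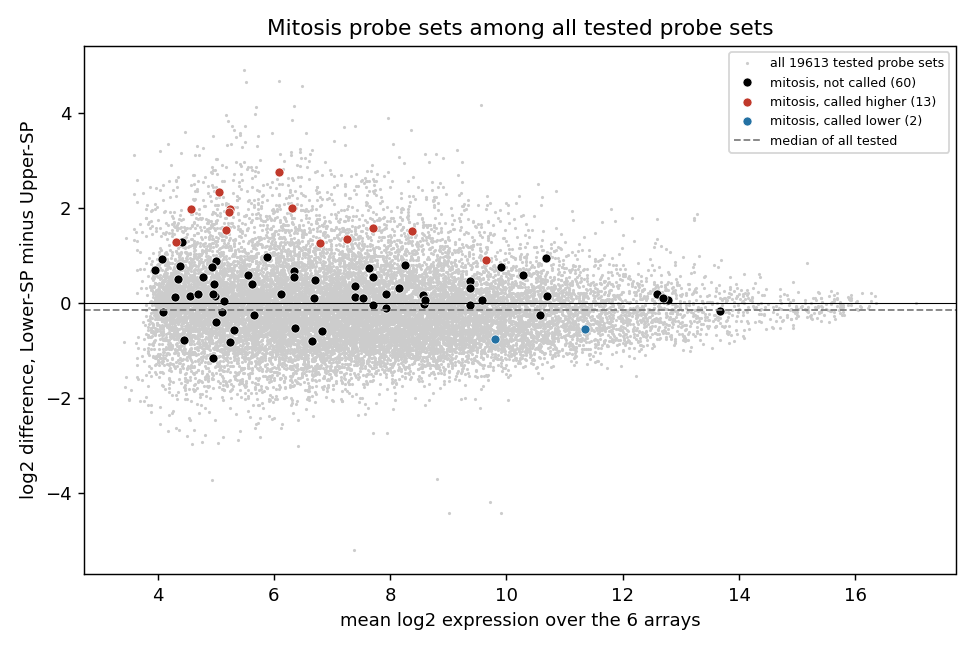
Difference (Lower-SP minus Upper-SP, log2) against the mean level over the 6 arrays (log2) of all 19613 tested probe sets (grey) and of the 75 tested mitosis probe sets (red, 13 called higher; blue, 2 called lower; black, 60 not called), with a dashed line at the median of all tested probe sets (-0.14). Of the mitosis probe sets 56 lie above 0.

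The chromosome structure genes held most of the raised probe sets, 7 of 18 tested, with 0 lower (against 10.7% and 17.5% of all tested probe sets). All 7 belong to condensin I, the ring complex that compacts mitotic chromosomes, whose SMC2 and SMC4 subunits form the arms and whose NCAPH, NCAPG and NCAPD2 subunits close and regulate the ring. SMC2 and SMC4 also serve condensin II. Of the 5 genes of condensin I, 4 had a raised probe set, and in 3 of these another tested probe set did not pass. Read through the brightest probe set, 2 of the 8 tested chromosome structure genes rose and 0 fell, against 7.05% and 20.7% of all genes. The shares of all tested probe sets also apply to the role counts below, of which the smallest lie near them.

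Ncapg read through 1429172_a_at had levels of 8.14, 7.33 and 6.92 in Lower-SP and of 4.67, 5.32 and 4.08 in Upper-SP. The lowest Lower-SP array lay above the highest Upper-SP array. Its difference of 2.77 (SE 0.41, 6.84-fold, adjusted p = 0.00473 by limma) was the largest of all tested members. The other Ncapg probe set, 1429171_a_at, had levels of 6.04, 5.3 and 4.62 against 4.57, 4.64 and 4.49, which overlap, and its difference of 0.75 did not pass (adjusted p = 0.146). Its call changed without Lower-SP replicate 3, where the difference was 1.11. No other gene of the set had probe sets as far apart in their differences (2.02).

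Smc2 has 4 tested probe sets, of which 3 rose. Probe set 1458479_at had levels of 6.29, 6.31 and 6.04 in Lower-SP and of 4.23, 3.20 and 4.21 in Upper-SP. Since its Upper-SP mean lies under log2 4, the size is a bound of at least 4.18-fold, with each array under 4 set to 4 (fitted difference 2.33, SE 0.32, adjusted p = 0.00368). Probe set 1429660_s_at had levels of 6.19, 6.76 and 5.60 against 4.28, 4.23 and 4.32, a difference of 1.91 (SE 0.31, adjusted p = 0.00589). The groups did not overlap in either. Probe set 1429658_a_at had levels of 7.89, 7.46 and 6.92 against 6.34, 6.24 and 5.91, a difference of 1.26 (SE 0.29, adjusted p = 0.0183) whose call was lost without Lower-SP replicate 1 or 2 or Upper-SP replicate 1 or 2. The brightest, 1448635_at, which is annotated to the RefSeq mRNA, had overlapping levels of 8.02, 7.66 and 7.04 against 7.41, 7.37 and 6.88, and its difference of 0.35 did not pass (adjusted p = 0.404).

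Smc4 also differed between its probe sets. Probe set 1427276_at rose by 1.58 (SE 0.21, 2.99-fold, adjusted p = 0.00337), from levels of 7.10, 6.67 and 6.95 in Upper-SP to 8.68, 8.44 and 8.36 in Lower-SP, and its groups lay far apart. Probe set 1427275_at had levels of 11.88, 10.88 and 10.71 against 9.98, 10.18 and 10.47, which did not overlap either, but its difference of 0.95 narrowly missed the threshold (adjusted p = 0.0506), and it passed at 1.17 without Lower-SP replicate 3. The brightest, 1452197_at, had overlapping levels of 11.01, 10.66 and 10.63 against 10.62, 10.77 and 10.46 (difference 0.15, adjusted p = 0.497).

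Ncaph was the condensin gene whose tested probe sets both rose. Probe set 1436707_x_at had levels of 9.61, 9.32 and 8.44 in Lower-SP and of 7.87, 8.01 and 6.96 in Upper-SP, a difference of 1.51 (SE 0.38, adjusted p = 0.0231). Probe set 1423920_at had levels of 8.09, 8.05 and 7.66 against 6.96, 7.0 and 5.82, a difference of 1.34 (SE 0.35, adjusted p = 0.0256). In both, the 3 Lower-SP arrays lay above the 3 Upper-SP arrays. Both calls were lost without Lower-SP replicate 1, Lower-SP replicate 2 or Upper-SP replicate 1, and that of 1436707_x_at also without Upper-SP replicate 3. Ncapd2, the remaining subunit, did not pass: 1423847_at had overlapping levels of 9.02, 8.47 and 8.39 against 8.91, 8.77 and 8.03 (difference 0.06), and 1430010_at had levels of 8.34, 7.89 and 7.72 against 7.64, 7.65 and 7.02, which did not overlap (difference 0.55, adjusted p = 0.155).

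The subunits particular to condensin II, which belong to the list of other mitosis genes, had no probe set called higher. Ncaph2 fell by 1.07 (SE 0.23, adjusted p = 0.0144) at its brightest probe set, with levels of 9.67, 9.65 and 9.31 in Lower-SP and of 10.82, 10.92 and 10.12 in Upper-SP. Of its 4 tested probe sets 2 fell and the remaining 2 had differences of -0.58 and -0.64; the call of the brightest was lost without Upper-SP replicate 1 or 2. Ncapd3 had differences of -0.07, 0.16 and -0.63 at its 3 tested probe sets and Ncapg2 of 0.81 (adjusted p = 0.157), none of which passed. Levels of Ncapg2 were 5.4, 5.6 and 4.08 in Lower-SP and 4.19, 4.2 and 4.28 in Upper-SP, with Lower-SP replicate 3 lowest. The difference between the 2 condensins was not tested.

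**Figure D3:**
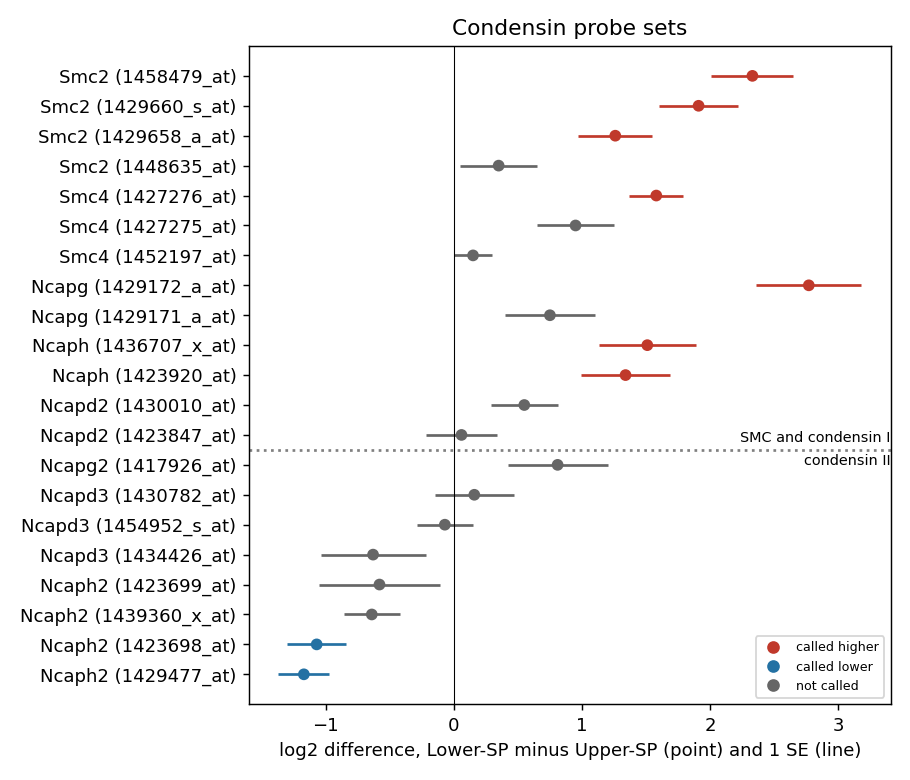
Difference (Lower-SP minus Upper-SP, log2, points) with 1 SE (lines) of each tested probe set of the SMC and condensin I genes above the dotted line and of the condensin II genes below it, red where higher, blue where lower and grey where not called. Probe sets of one gene differ, with Ncapg at 2.77 and 0.75 and Smc4 at 1.58, 0.95 and 0.15, and the lowest are those of Ncaph2, down to -1.17.

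The other chromosome structure genes did not pass. Mki67, which coats mitotic chromosomes and is the usual marker of cycling cells, had levels of 11.23, 10.86 and 8.73 in Lower-SP and of 9.61, 9.61 and 9.35 in Upper-SP. Lower-SP replicates 1 and 2 were its highest arrays and Lower-SP replicate 3 its lowest, so that the groups overlap (difference 0.75, SE 0.58, adjusted p = 0.357). Without Lower-SP replicate 3 its difference was 1.52 and passed, and its adjusted p ran from 0.00286 to 0.815 over the alternatives. Top2a, the topoisomerase that untangles sister DNA, behaved alike at 1454694_a_at, with 10.18, 9.61 and 8.82 against 9.34, 9.09 and 9.22 (difference 0.32, adjusted p = 0.479), and passed at 0.68 without Lower-SP replicate 3. Its probe set 1442454_at had a difference of 0.19. Cdca5 (sororin), which protects cohesion of sister chromatids, had differences of -0.04 and -0.25, and Lower-SP replicate 3 was the lowest of all 6 arrays in both of its probe sets.

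Of the 15 tested probe sets of spindle motors and microtubule-binding proteins, 3 rose and 0 fell. Kif2c, a kinesin that takes microtubules apart at their ends, had levels of 7.74, 7.88 and 6.33 at 1437611_x_at in Lower-SP and of 5.38, 4.83 and 5.72 in Upper-SP. These do not overlap and differ by 2.00 (SE 0.45, 4.0-fold, adjusted p = 0.0159). The call was lost without Lower-SP replicate 1 or 2 or Upper-SP replicate 1 or 2. Its second tested probe set, 1432392_at, had levels of 4.86, 4.65 and 4.27 against 4.18, 4.23 and 3.89 and did not pass (difference 0.50, adjusted p = 0.145).

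Kif11, the kinesin that pushes the spindle poles apart, had levels of 5.75, 6.26 and 4.69 at 1452315_at in Lower-SP and of 3.31, 3.80 and 3.65 in Upper-SP. All Upper-SP arrays lay under log2 4, and the size is a bound of at least 2.96-fold (fitted difference 1.98, SE 0.39, adjusted p = 0.0109), with the call lost without Upper-SP replicate 1. The brightest Kif11 probe set, 1435306_a_at, had levels of 5.90, 6.09 and 4.38 against 4.66, 4.49 and 4.55. Lower-SP replicate 3 was its lowest array, and its difference of 0.89 did not pass (adjusted p = 0.16) but was 1.43 and passed without that array. A dimmer one that was not tested, 1452314_at, had 5.10, 5.73 and 3.42 against 2.36, 2.68 and 2.56.

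Tpx2, which brings Aurora A to the spindle, had levels of 5.56, 5.0 and 4.32 in Lower-SP and of 3.57, 3.96 and 3.49 in Upper-SP at 1428104_at. The groups do not overlap, and the rise is a bound of at least 1.95-fold (fitted difference 1.29, SE 0.33, adjusted p = 0.0249). Leaving out any single array other than Lower-SP replicate 3 lost the call. Tpx2 has 3 further probe sets, none tested.

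The remaining spindle genes did not pass. Stmn1, which binds tubulin and destabilises microtubules, had overlapping levels of 13.69, 13.72 and 13.38 against 13.76, 13.86 and 13.64 (difference -0.16, 95% interval -0.42 to 0.11), and its second probe set differed by -0.10. Hmmr, a spindle assembly factor, and Dlgap5, which stabilises kinetochore fibres, had groups that did not overlap and differences of 0.73 (adjusted p = 0.0553) and 0.77 (adjusted p = 0.0518); both passed without Lower-SP replicate 3, at 0.82 and 0.89. Nusap1, which bundles spindle microtubules, had levels of 5.09, 4.48 and 4.02 against 4.03, 3.92 and 2.87, which overlap (fitted difference 0.92, adjusted p = 0.11; its Upper-SP mean lies under log2 4, so the size is a bound of at least 1.43-fold). Kif22, a chromosome-arm kinesin, had differences of 0.47, 0.10 and 0.05, of which the first passed at 0.63 without Lower-SP replicate 3. Spag5 (astrin) had the widest Lower-SP spread, with 7.05, 6.77 and 3.69 against 5.38, 5.40 and 5.50 (difference 0.41). Without Lower-SP replicate 3 its difference was 1.48 and without Lower-SP replicates 1 and 2 it was -1.74, and it passed in both. Lower-SP replicate 3 lies under log2 4 here, so the size of the latter is a fitted value only. Ckap2 had a difference of -0.19, and of -1.22, which passed, without Lower-SP replicates 1 and 2, with Lower-SP replicate 3 at 2.97.

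At the centromere and kinetochore 2 of 7 tested probe sets rose and 1 fell. Cenpa, the histone H3 variant that marks the centromere, was called in both directions. Probe set 1444416_at had levels of 10.17, 9.92 and 10.20 in Lower-SP and of 9.20, 9.27 and 9.11 in Upper-SP, a rise of 0.90 (SE 0.15, adjusted p = 0.00595) with tight groups. The brighter 1450842_a_at had levels of 11.06, 10.99 and 11.19 against 11.66, 11.79 and 11.42 and fell by 0.55 (SE 0.13, adjusted p = 0.0207). That fall lost its call without Lower-SP replicate 1 or 2 or Upper-SP replicate 1 or 2, and with cyclic loess, where it was -0.35. A direction for the gene as a whole cannot be read from these values. Both probe sets are annotated to a sequence other than a RefSeq mRNA.

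Cenpe, the kinesin that carries chromosomes to the spindle equator, had levels of 6.62, 6.12 and 5.09 at 1439040_at in Lower-SP and of 4.24, 4.10 and 4.90 in Upper-SP. Lower-SP replicate 3 lay just above Upper-SP replicate 3, and the rise was 1.53 (SE 0.42, 2.89-fold, adjusted p = 0.0297). The call was lost without Lower-SP replicate 1 or 2 or Upper-SP replicate 1 or 2. Its other probe set, 1435005_at, had overlapping levels of 6.39, 5.52 and 5.61 against 5.51, 4.68 and 5.59 (difference 0.58, adjusted p = 0.245). Ndc80, which grips the microtubule, had levels of 6.97, 6.95 and 6.90 against 6.64, 6.43 and 6.33, groups that did not overlap, but did not pass (difference 0.48, adjusted p = 0.119). Cenpf (fitted difference 0.69, a bound of at least 1.22-fold) and Cenpn (-0.18) did not pass.

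Of the 8 tested cytokinesis probe sets 1 rose. Anln (anillin), the scaffold of the contractile ring, had levels of 7.07, 7.02 and 4.63 in Lower-SP and of 4.39, 4.10 and 4.32 in Upper-SP. Lower-SP replicate 3 lay close to the Upper-SP arrays, and the rise of 1.97 (SE 0.61, 3.91-fold, adjusted p = 0.0469) was near the threshold. Its call was lost without any single array other than Lower-SP replicate 3, with quantile normalization and with cyclic loess. Racgap1, which with KIF23 forms the centralspindlin complex, had levels of 5.02, 4.98 and 3.12 against 6.02, 5.77 and 4.80 at 1451358_a_at (difference -1.16, adjusted p = 0.156). Without Lower-SP replicates 1 and 2 this fitted difference was -2.41 and passed, with the remaining Lower-SP array under log2 4. Its other probe set differed by 0.19. Kif23 had levels of 5.67, 6.80 and 6.61 against 5.15, 5.01 and 6.02 at 1450827_at, which overlap (difference 0.97, adjusted p = 0.101), and it passed at 1.31 without Lower-SP replicate 1. Its brightest probe set differed by -0.02. Prc1, which bundles microtubules at the midzone, had differences of 0.10 and 0.18.

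Of the 8 tested probe sets of CDK1 and its regulators 0 rose and 1 fell. Cdk1 had levels of 7.49, 7.34 and 7.56 in Lower-SP and of 7.60, 7.37 and 7.03 in Upper-SP. These overlap and differ by 0.13 (95% interval -0.38 to 0.64, adjusted p = 0.68). Ccna2, the cyclin of S phase and mitotic entry, had levels of 6.04, 5.25 and 3.87 against 4.63, 4.15 and 4.74, with Lower-SP replicate 3 lowest (difference 0.55, adjusted p = 0.447), and passed at 1.14 without that array. Ccnb2, a mitotic cyclin, had levels of 5.48, 5.62 and 3.95 against 5.83, 6.22 and 4.74 (difference -0.58, adjusted p = 0.443). Replicate 3 was its lowest array in both groups.

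Cks2, a small subunit that helps CDK1 recognise phosphorylated targets, fell at 1417458_s_at. Levels were 9.55, 9.41 and 9.32 in Lower-SP and 10.35, 10.56 and 9.65 in Upper-SP, a difference of -0.76 (SE 0.24, adjusted p = 0.0475). The call was lost without each array except Upper-SP replicate 3, and with quantile normalization, centring and cyclic loess. Its brighter probe set, 1417457_at, had overlapping levels of 12.68, 12.88 and 12.84 against 12.64, 12.84 and 12.71 (difference 0.07, 95% interval -0.16 to 0.30). The related Cks1b had levels of 12.89, 12.77 and 12.40 against 12.46, 12.59 and 12.44 at its brightest probe set (difference 0.19, adjusted p = 0.339), which passed at 0.33 without Lower-SP replicate 3. Its dimmer one had 4.94, 4.68 and 4.89 against 5.93, 5.90 and 5.15, groups that did not overlap (difference -0.82, adjusted p = 0.0584). Cdca3, which triggers mitotic entry through the destruction of WEE1, differed by -0.52. Without Lower-SP replicates 1 and 2 its difference was -1.32 and passed. For Cks1b and Cks2 all tested probe sets are annotated to RefSeq mRNAs, and the differences of the bright and the dim probe set of each gene disagree in sign.

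Among the mitotic kinases and the chromosomal passenger complex 0 of 4 tested probe sets passed. Plk1, the kinase of centrosome maturation and many later steps, had levels of 4.72, 4.55 and 5.15 against 5.23, 6.15 and 4.27, which overlap (difference -0.41, adjusted p = 0.528). Cdca8 (borealin), a targeting subunit of the passenger complex, had levels of 11.27, 11.15 and 9.33 against 10.08, 10.15 and 9.78 at its brightest probe set. Lower-SP replicate 3 was again the lowest (difference 0.58, adjusted p = 0.383), and without it the difference was 1.21 and passed. Its other probe sets differed by 0.17 and 0.15.

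The spindle assembly checkpoint had 0 of 8 probe sets that passed. Bub1b (BUBR1), which inhibits the anaphase-promoting complex, had levels of 8.65, 8.99 and 8.37 against 8.04, 7.19 and 8.34 at its brightest probe set and of 6.63, 6.94 and 6.49 against 5.87, 5.79 and 6.38 at 1416961_at. The groups did not overlap in either, and the differences were 0.81 (adjusted p = 0.0943) and 0.68 (adjusted p = 0.0841). The dimmest differed by 0.40. Bub3, its partner, had differences of -0.26, 0.55 and -0.77, of which the second passed at 1.11 without Lower-SP replicate 3. Mad2l1, which binds CDC20, differed by 0.32, and Bub1, a checkpoint kinase, by 0.18.

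In the group of the anaphase-promoting complex and separase 0 of 7 tested probe sets passed. Cdc20, the activator of the complex, had levels of 10.02, 9.60 and 9.23 against 9.54, 9.56 and 9.53 at its brightest probe set (difference 0.07, 95% interval -0.41 to 0.56). At 1416664_at it had 7.16, 6.56 and 5.84 against 7.23, 7.59 and 6.53 (difference -0.60, adjusted p = 0.294). Ube2c, its ubiquitin-conjugating enzyme, had levels of 5.71, 6.15 and 3.30 against 5.42, 5.43 and 3.91, with replicate 3 lowest in both groups (difference 0.14). Pttg1 (securin) had differences of 0.11, -0.04 and -0.81. Espl1 (separase), the protease that cuts cohesin, narrowly missed the threshold. Its levels were 5.04, 4.58 and 5.57 in Lower-SP and 4.09, 4.31 and 2.92 in Upper-SP, groups that did not overlap. The Upper-SP mean lies under log2 4, and the size is a bound of at least 1.91-fold (fitted difference 1.29, SE 0.41, adjusted p = 0.0506). Lower-SP replicate 3 was its highest array, and it passed with centring on the median, at 1.38; its adjusted p ran from 0.029 to 0.206 over the alternatives.

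**Figure D4:**
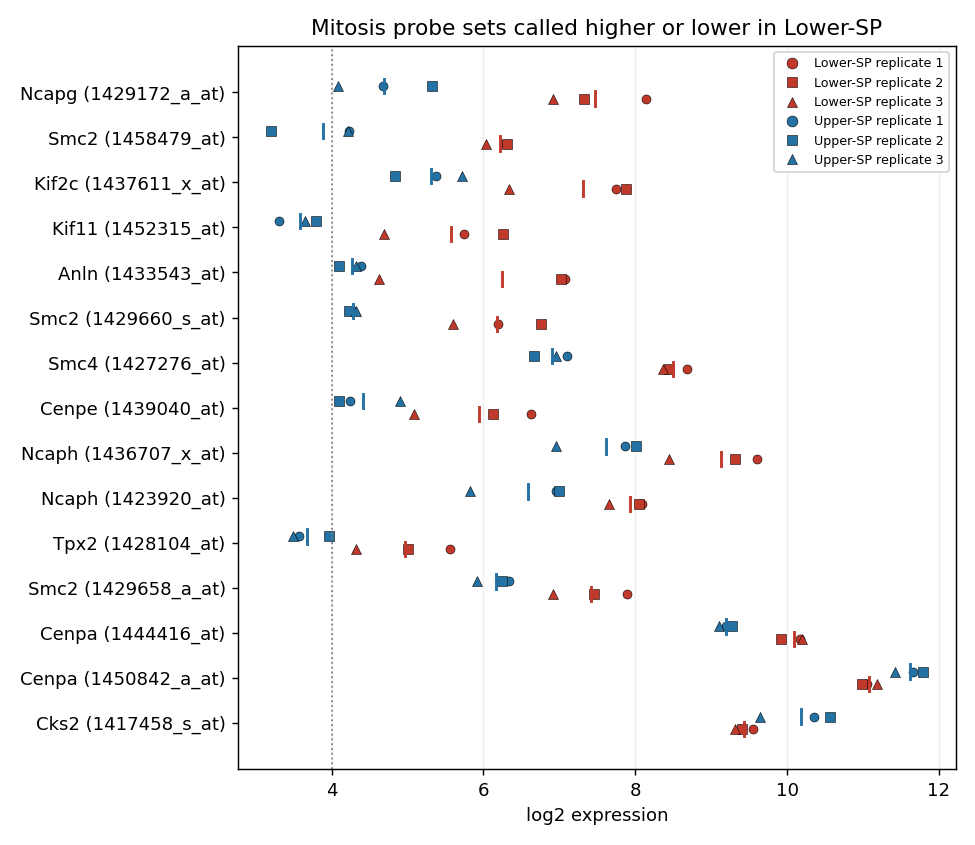
Levels (log2) on each of the 6 arrays of the 15 mitosis probe sets that passed, ordered by difference, with group means as bars and log2 4 as a dotted line. In all 15 the groups do not overlap; the 13 higher in Lower-SP differ by 0.90 to 2.77, and Cenpa 1450842_a_at and Cks2 1417458_s_at are lower, by -0.55 and -0.76.

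Many regulators lay near the background. The 49 probe sets not tested include every probe set of Foxm1, Melk, Aurka, Aurkb, Birc5, Nek2, Ttk, Nuf2, Kif4, Kif20a and Ect2. Of the 49, 34 lay at or under log2 4 on all arrays and 15 lay above it on 1 or 2. Foxm1, the transcription factor of the mitotic genes, had 4.17, 3.76 and 3.92 against 3.85, 3.94 and 3.80 at its brightest probe set. Aurkb, the passenger complex kinase, had 3.92, 4.03 and 3.94 against 3.84, 3.76 and 3.94, and Birc5 (survivin), of the same complex, had 3.56, 3.71 and 3.46 against 3.40, 3.42 and 3.33. Aurka, the centrosome kinase, had 3.94, 4.24 and 4.27 against 3.80, 3.73 and 3.67. In these 4 genes every array lay within a narrow band around or below the floor, which sets no level. Kif4, a chromosome-bound kinesin, lay above the floor on Lower-SP replicates 1 and 2 alone, with 4.84, 5.87 and 2.73 against 3.53, 3.74 and 3.02.

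Lower-SP replicate 3 stood apart from the other Lower-SP arrays in the mitosis genes. It was the lowest of its group in 55 of the 75 tested probe sets (73.3%, against 36.0% of all tested probe sets). In 19 (25.3%, against 4.42%) it lay at least 1 log2 unit under both others, and these belong to 16 genes, among them Ccna2, Cdca8, Kif11, Anln, Mki67, Ube2c and Spag5. Upper-SP replicate 3 was the lowest of its group in 46 (61.3%, against 45.3%). The median SD of the 75 was 0.43 in Lower-SP, against 0.28 over all tested probe sets, and 0.29 in Upper-SP, against 0.23. The mean level of the 75 was 7.54, 7.39 and 6.78 in Lower-SP and 6.91, 6.87 and 6.62 in Upper-SP, while that of all tested probe sets was 7.47, 7.40 and 7.44 against 7.57, 7.51 and 7.48.

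The neutrophil markers ordered the Lower-SP arrays in the same way, with mean levels over the 13 markers of 7.43, 7.01 and 4.77, against 4.61, 4.80 and 4.0 in Upper-SP; their part in the mitosis differences was not tested. Of the 15 calls, 5 passed also without Lower-SP replicates 1 and 2: Ncapg 1429172_a_at at 2.23, Smc2 1458479_at at 2.16 (fitted, with an Upper-SP mean under log2 4) and 1429660_s_at at 1.33, Smc4 1427276_at at 1.45 and Cenpa 1444416_at at 1.01. These 5 also kept their call with each single array left out. None kept it with replicate 1 or replicate 2 left out of both groups, where 0 and 202 of all tested probe sets passed. In the fit without Lower-SP replicates 1 and 2, the other tested probe sets of their genes differed less. The differences were 0.05 (Ncapg), 0.76 and -0.18 (Smc2), 0.50 and 0.01 (Smc4) and -0.44 (Cenpa). The 4 that were lower in that fit were Racgap1, Spag5, Cdca3 and Ckap2, none of which passed with all arrays. By role, the array means of the chromosome structure probe sets were 8.60, 8.30 and 7.60 in Lower-SP and 7.38, 7.34 and 7.02 in Upper-SP, which do not overlap; nor did those of the centromere and kinetochore, with 7.28, 6.97 and 6.84 against 6.63, 6.53 and 6.45. Those of CDK1 and its regulators were 8.21, 8.04 and 7.52 against 8.28, 8.30 and 7.85, with Lower-SP replicate 3 lowest. Those of the spindle motors were 6.98, 6.86 and 5.93 against 5.99, 6.01 and 5.83, so that Lower-SP replicate 3 lay among the Upper-SP arrays.

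**Figure D5:**
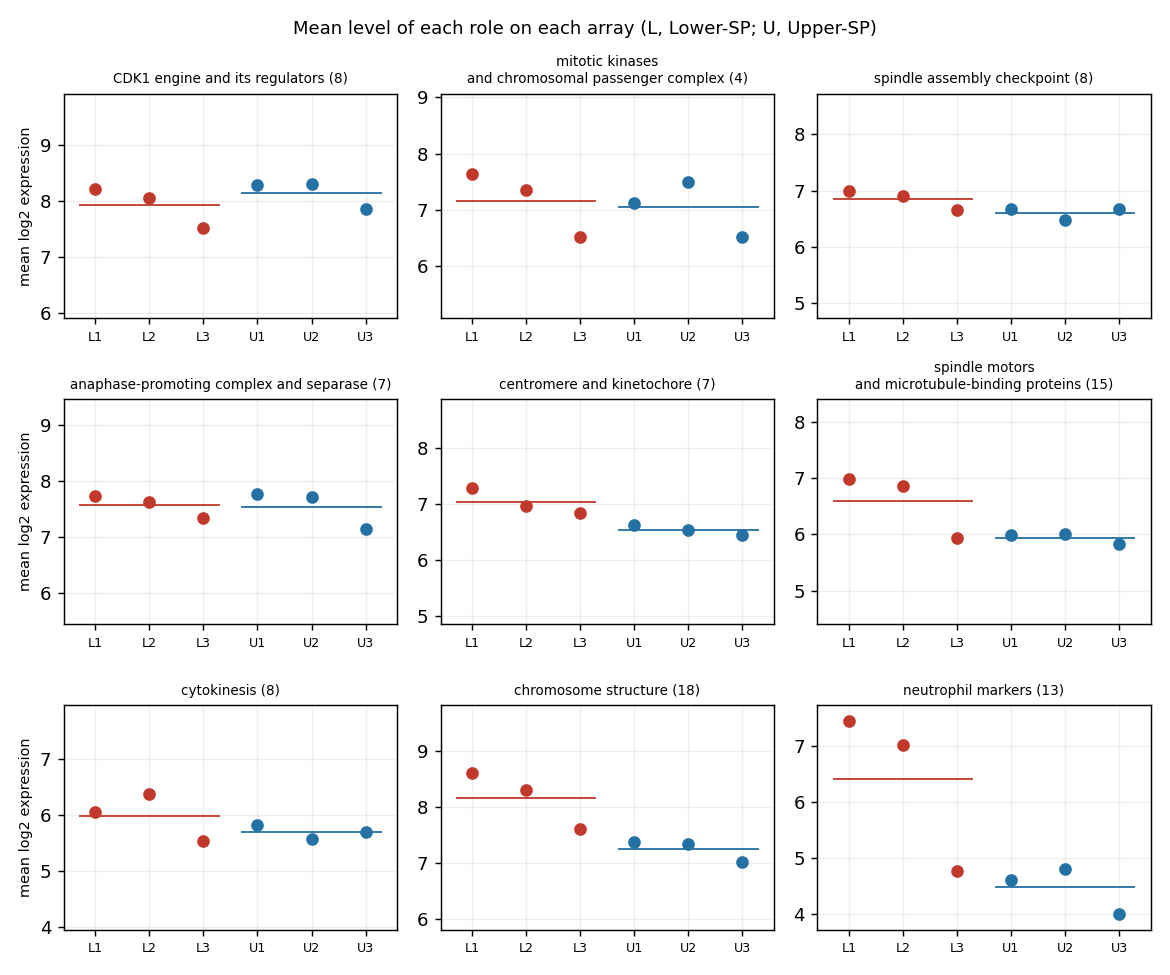
Mean level (log2) on each array (L, Lower-SP; U, Upper-SP; replicates 1 to 3) of the tested probe sets of each of the 8 roles and of the 13 neutrophil markers, with lines at the group means; panel titles give the number of probe sets, and each axis spans 4 log2 units. In chromosome structure the lowest Lower-SP array (7.60) lies above the highest Upper-SP array (7.38), in the spindle motors Lower-SP replicate 3 (5.93) lies among the Upper-SP arrays, and the neutrophil markers have 7.43 and 7.01 on Lower-SP replicates 1 and 2 and 4.77 on replicate 3.

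Raised calls came from probe sets annotated to sequences other than RefSeq mRNAs. Of the 16 tested member probe sets annotated to a RefSeq mRNA 0 rose and 1 fell (Cks2). Their median difference was 0.10, against -0.39 over all 2800 tested RefSeq mRNA probe sets, and 9 of 16 were positive, against 731 of 2800. Of the 59 annotated to another sequence 13 rose and 1 fell, with a median of 0.47. The median of all tested probe sets of that kind is not given here, so the member medians of both kinds are not compared. Over the whole array 3.46% of the 2800 tested RefSeq mRNA probe sets rose and 26.7% fell, while 10.7% and 17.5% of all tested probe sets did. At 16 probe sets, 0 raised is near the array's share, so the lack of rises there is not particular to the members. A total of 23 member genes have 2 or more tested probe sets. Of these, 8 had differences of both signs, and the median gap between the highest and lowest difference of a gene was 0.92. The place of each probe set along its transcript was not used here.

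The other mitosis genes, a list of 124 with no member in it, moved in both directions. Of the 99 with a tested probe set, 11 rose and 15 fell at the brightest one, against 7.05% and 20.7% of all genes. Their median difference was 0.00, against -0.24 of all genes, and 49 of 99 were positive, against 3370 of 9460. Omitting Lower-SP replicates 1 and 2 left 2 higher and 10 lower (against 4.15% and 8.41% of all genes), and omitting Upper-SP replicate 1 left 5 and 1 (against 2.98% and 4.43%).

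The largest fitted rises included 3 kinetochore genes. Of the 27 tested kinetochore and checkpoint genes in this list 3 rose and 1 fell, against 7.05% and 20.7% of all genes. The share that rose is near the background at this number of genes. Knl1, the scaffold on which the checkpoint assembles, rose by 2.87 (SE 0.57), from 3.75, 3.93 and 5.12 in Upper-SP to 8.12, 7.29 and 6.00 in Lower-SP. Spdl1, which recruits dynein to kinetochores, rose by 1.39 (SE 0.25). Cenpk, of the inner kinetochore, had an Upper-SP mean under log2 4, and its rise is a bound of at least 2.1-fold (fitted difference 1.6, SE 0.47). Of spindle genes, Kif20b rose by 1.56, Ckap5, a microtubule polymerase, by 1.52, and Arhgap11a, a regulator of RhoA, by 1.40. The rises of Kif20b, Ckap5 and Spdl1 kept their call with each single array left out. Those of Knl1 and Arhgap11a lost it without Upper-SP replicate 1, and that of Cenpk without Lower-SP replicate 1 or 2 or Upper-SP replicate 1 or 2. None of these 6 passed without Lower-SP replicates 1 and 2, where they differed by 0.93 to 1.73.

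The largest falls included Cenpo, of the inner kinetochore, with a difference of -2.13 (SE 0.41), from 7.93, 7.04 and 7.37 in Upper-SP to 5.69, 5.79 and 4.48 in Lower-SP. Its second probe set differed by -0.38. Nde1, a dynein regulator, differed by -1.22, Haus7, of the augmin complex, by -1.09, Ncaph2 by -1.07 and Fzr1 (CDH1), the second activator of the anaphase-promoting complex, by -1.0. Of the 15 tested genes of that complex and its regulators, 4 fell and 1 rose, against 20.7% and 7.05% of all genes, which is near the background at this number of genes. Anapc1, its largest subunit, differed by -1.11 (brightest probe set) and by -0.80, -0.38 and 0.82 at the others. Anapc5 passed at all 6 of its tested probe sets, with differences of -0.29 to -1.34, although the smallest of these, at the brightest one, lost its call with each rescaling. The calls of Cenpo and Anapc1 were lost without Upper-SP replicate 1, that of Haus7 without Lower-SP replicate 2 or Upper-SP replicate 1, and that of Nde1 without Lower-SP replicate 1 or 3 or Upper-SP replicate 1 or 2. Those of Fzr1 and the brightest Anapc5 probe set were lost without Lower-SP replicate 1 or 2 or Upper-SP replicate 1 or 2. Of the 6 largest falls, Cenpo alone passed also without Lower-SP replicates 1 and 2, at -2.97. Fzr1 also lost its call with quantile normalization, centring and cyclic loess. Smc1a, of the cohesin ring, was called at all 3 of its probe sets but not in 1 direction, with differences of 0.72, -0.79 and 2.65.

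Few of the DNA replication genes passed when read in the same way. Of 53 with a tested probe set 4 rose and 3 fell, against 7.05% and 20.7% of all genes. Their median difference was 0.12, against -0.24 of all genes, and 34 of 53 were positive, against 3370 of 9460. With Lower-SP replicates 1 and 2 omitted their median was 0.01, against -0.17 of all genes.

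The scaling of the arrays moved both the background and the members. Cyclic loess shifted the median difference of all tested probe sets from -0.14 to -0.03, and the members' median from 0.32 to 0.40. The share of calls that were higher went from 13 of 15 to 14 of 14 in the members and from 2090 of 5520 to 2585 of 5015 over all tested probe sets (25.6% called, 13.2% higher and 12.4% lower). Of the 15 calls, 12 passed also with cyclic loess, 13 with quantile normalization and 14 with centring on the median, and none changed direction.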

How the data were processed

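Each of the 6 samples was hybridised to 1 Affymetrix mouse array. The authors deposited log2 values from GCRMA, a method that as a rule subtracts a background modelled on probe sequence, normalizes between arrays and summarises the probes of each set; GCOS 1.0 and GCRMA are named, without parameters, per the submitters' processing notes. For the array, a genome build was not given in the sources used here. Of 45101 probe sets, 64 controls were left out. The supplied array annotation gave 34945 probe sets 1 symbol, 932 several and 9160 none; all 124 member probe sets matched a current gene record by Entrez ID.

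The 19613 probe sets with a level above log2 4 on 3 or more of the 6 arrays were tested in R 4.3.3 with limma 3.58.1 (lmFit, eBayes with trend, two-sided; residual df 4, prior df 3.80), Lower-SP against Upper-SP, with no block and Benjamini-Hochberg adjustment over all of them at 0.05. Intervals cover 95%. A gene was read through its tested probe set with the highest mean. If the mean of a group was under log2 4, its arrays under 4 were raised to 4 and the fold given as a bound.

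Full values are given for members that passed with the other tested probe sets of their genes, for a fixed list (Mki67, Top2a, Cdk1, Ccna2, Ccnb2, Foxm1, Plk1, Aurka, Aurkb, Birc5, Cdc20, Bub1b, Stmn1, Cks1b, Cks2) and for the 4 other members with the largest differences that did not pass; for other mitosis genes, for up to 6 in each direction. Members named beyond these were chosen after their values were seen, as were Anapc5, Smc1a and the condensin II genes. The members and lists were chosen with earlier results of these data known.

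Alternatives were no filter, a filter on the mean or at log2 6, a floor of 4 on all values, a robust or no trend, unmoderated statistics, quantile normalization, centring, cyclic loess, array weights, no _x_at or _s_at probe sets, a 2-fold minimum, a replicate block, other representatives of a gene, and arrays left out. RefSeq mRNA probe sets alone were added after seeing the data. Tested on simulated data for this comparison of 19613 probe sets, the fit recovered 20% of changes of log2 1 and 69% of log2 2, and 4.3% of its calls were unchanged probe sets. The simulation changed far fewer probe sets than were called in the real data, so these rates need not hold for the real data. The number of arrays limits the precision.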

Additional observations from a re-analysis of the deposited data

How the results depend on the processing

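With all arrays, 5520 probe sets, 15 member probe sets, 6 member genes and 26 other mitosis genes passed. In that order, no filter gave 2931, 6, 1 and 13, unmoderated statistics 1967, 4, 0 and 6, array weights 10728, 37, 18 and 52, and RefSeq mRNA probe sets alone, with fewer probe sets tested, 873, 1, 0 and 5. The cause of the changes under unmoderated statistics and array weights was not tested, and no filter adds the dim probe sets to the adjustment. Without Lower-SP replicates 1 and 2 together, 2715 probe sets, 9 member probe sets and 12 other mitosis genes passed, and the median member difference was 0.00. A 2-fold minimum left 3040 probe sets and 12 other mitosis genes. Reading genes through the probe set with the smallest p gave 11 member genes (10 higher and 1 lower), a choice that can only add calls. Through the mean of the tested probe sets it gave 10 (10 higher and 0 lower). The shares of all genes called under these readings are not given here, so these counts have no background to be set against. With 1 array, or 1 replicate number in both groups, left out, the counts ran from 0 to 8331 probe sets, 0 to 31 member probe sets, 0 to 16 member genes and 0 to 42 other mitosis genes. The remaining settings kept all 4 counts within 1.5 times. Spag5 1433893_s_at went from 0.41, not called, to -1.74, called, without Lower-SP replicates 1 and 2. The replicate block gave 4180 probe sets, 13 member probe sets (12 higher, 1 lower), 5 member genes and 18 other mitosis genes. Across all tested probe sets the same-numbered arrays did not deviate together (correlations -0.0513, -0.0294 and -0.0233). Whether they shared a sorting day or a pool cannot be read from these correlations, and the labels do not say.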
